A study of Homo sapiens with 12 samples.

Results

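The genes described here are 8 lysosomal sphingolipid hydrolases and activator proteins, namely GM2A, PSAP, GLB1, HEXA, GLA, GALC, SMPD1 and ASAH1. The rule is a list of gene symbols grouped by function and uses no measured value, and each symbol matched 1 of the 57820 genes of the deposited table. All 8 passed the filter on low values, a mean of at least 10 normalized reads over the libraries, which 23128 genes passed. RNA-seq had been run on 12 libraries from HL60 cells, which derive from a human promyelocytic leukaemia. The cells had been transduced with pRRL-TFEBS211A-puro, which expresses the S211A form of the transcription factor TFEB when doxycycline is present, or with the empty vector pRRL-EV-puro (EV). The groups were TFEB doxycycline, TFEB vehicle, EV doxycycline and EV vehicle, with 3 libraries each, which the study states to be independent experiments. Exposure to the drug lasted 48 h at a dose of 1 µg/ml. The labels name no clone, and no other HL60 line was analysed here.

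Sphingolipids are taken apart in the lysosome from the sugar end inwards. Soluble exohydrolases remove 1 sugar or head group at a time until ceramide is left, and acid ceramidase then releases sphingosine and a fatty acid. Because the short sugar chains lie too close to the membrane for most of these enzymes, small activator proteins bind the lipid and present it to the enzyme. Inherited loss of a single member causes a storage disease, among them Tay-Sachs disease (HEXA), Fabry disease (GLA), Krabbe disease (GALC) and Niemann-Pick disease types A and B (SMPD1). TFEB is known as a regulator of lysosomal genes that binds the CLEAR motif, a palindrome around the E-box core CACGTG. Phosphorylation at the serine that the S211A form lacks holds TFEB in the cytosol.

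The promoter sequences are shown to set the start sites of genes with large changes beside that motif. Promoters were available in the RefSeq table (GRCh38.p14), which holds 250 bases before to 50 bases after a start site, for 5 of the 8 genes (GM2A, SMPD1, GLA, GLB1 and GALC), GALC with 4 start sites. ASAH1, HEXA and PSAP had no entry. The letters CACGTG, which read the same on both strands, occurred in none of these 8 promoters and in 7.26% of all 35116 promoters. The whole CLEAR motif, searched as GTCAC followed at once by GTGAC, contains CACGTG and is its own reverse complement. It occurred in none of them and in 0.353% of all. Its first 5 letters, GTCAC, searched on both strands, occurred in 4 of the 8 promoters and in 42.5% of all. Of 6 further genes of the pathway or its partner proteins with an entry, CTSA, NEU1 and SUMF1 held CACGTG. A match is a run of letters and not a measured binding site, and a promoter without a match may have one outside this window. Only exact letters were searched, so variants of the motif inside the window were not counted. In the sequences below, 5′ to 3′ on the strand of the gene, capitals mark CACGTG and GTCAC or its reverse complement. GM2A and SMPD1 stand for members with large changes, and CTSA and NEU1 for genes of the same pathway with the E-box core.
GM2A (plus strand, chr5:151252935-151253234): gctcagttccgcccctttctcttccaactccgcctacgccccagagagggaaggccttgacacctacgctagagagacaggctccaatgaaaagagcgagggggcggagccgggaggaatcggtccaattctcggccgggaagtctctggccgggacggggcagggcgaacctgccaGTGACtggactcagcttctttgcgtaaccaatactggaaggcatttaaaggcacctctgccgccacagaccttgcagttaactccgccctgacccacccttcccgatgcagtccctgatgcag
SMPD1 (plus strand, chr11:6390224-6390523): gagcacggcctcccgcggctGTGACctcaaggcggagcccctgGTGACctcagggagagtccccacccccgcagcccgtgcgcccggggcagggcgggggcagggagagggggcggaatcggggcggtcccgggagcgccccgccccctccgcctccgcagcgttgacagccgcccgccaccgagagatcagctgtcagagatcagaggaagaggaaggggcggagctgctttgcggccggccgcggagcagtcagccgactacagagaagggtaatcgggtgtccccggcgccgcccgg
CTSA (plus strand, chr20:45891085-45891384): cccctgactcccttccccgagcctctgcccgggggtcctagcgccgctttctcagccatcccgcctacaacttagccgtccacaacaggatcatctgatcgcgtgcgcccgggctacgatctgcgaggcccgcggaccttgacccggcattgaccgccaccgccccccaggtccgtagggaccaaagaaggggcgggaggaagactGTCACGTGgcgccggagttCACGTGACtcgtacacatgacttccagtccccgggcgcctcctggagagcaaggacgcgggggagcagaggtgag
NEU1 (minus strand, chr6:31862772-31863071): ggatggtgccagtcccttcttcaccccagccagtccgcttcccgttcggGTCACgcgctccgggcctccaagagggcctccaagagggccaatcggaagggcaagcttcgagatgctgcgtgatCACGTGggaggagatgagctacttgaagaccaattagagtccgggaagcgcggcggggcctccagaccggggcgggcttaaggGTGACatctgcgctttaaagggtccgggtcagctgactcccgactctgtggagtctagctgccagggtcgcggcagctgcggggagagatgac
In CTSA the cores began 42 and 25 bases before the start site, and in NEU1 the core began 126 bases before it.

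Library sizes ranged from 4474007 to 22488047 recovered reads, and EV doxycycline replicate 3 was the shallowest library. TFEB itself had 17468, 22629 and 14470 normalized reads in TFEB doxycycline, and between 79.8 and 196 in the other 9 libraries, so the 3 induced libraries matched their labels. The levels of the other 3 groups overlapped, so this value does not check the labels among them. Reads of the transgene and the endogenous gene cannot be separated. The HL60 marker myeloperoxidase (MPO) averaged 5604 normalized reads in TFEB doxycycline, 63170 in TFEB vehicle, 14643 in EV doxycycline and 109799 in EV vehicle. The summed level of 7 promyelocyte markers ranged from 7527 to 10614 in TFEB doxycycline, 47713 to 93104 in TFEB vehicle, 4551 to 28397 in EV doxycycline and 63858 to 211341 in EV vehicle. The sum of 7 macrophage markers ranged from 15025 to 25136 in TFEB doxycycline, 460 to 497 in TFEB vehicle, 442 to 1274 in EV doxycycline and 428 to 601 in EV vehicle. In TFEB doxycycline against TFEB vehicle 4 macrophage markers (CD68, CD163, MARCO and ITGAX, the last with the highest mean) rose, CSF1R fell, CD14 was not called and MRC1 was at 0 in each library. Among the promyelocyte markers MPO, PRTN3, AZU1 and CEBPE fell and none rose. Sums of 5 markers each stayed at or below 53.8 normalized reads in TFEB doxycycline for erythroid genes, 103 for lymphoid genes (CD79A the highest) and 283 for stromal or epithelial genes (COL1A1 the highest). Mitochondrial reads made up 13.3 to 17.9% of a library in TFEB doxycycline, 23.8 to 29.4% in TFEB vehicle, 26.2 to 33.1% in EV doxycycline and 21.0 to 26.5% in EV vehicle. In bulk RNA, fewer cells of a type and less RNA per cell cannot be told apart, and the part of these shifts in the results on the sphingolipid genes was not tested.

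Within the TFEB line, 7 of the 8 genes were called higher with doxycycline than with vehicle, by between 1.34 and 6.62 on the log2 scale. The drug and the induction of TFEB S211A come together in this comparison. GM2A stood highest, followed by ASAH1, SMPD1, PSAP, HEXA, GLA and GLB1, while GALC was not called. Of all 23128 genes tested, 17.4% were called higher and 4.66% lower in this comparison. The median log2 change was 3.71 over the 8 genes and 0.00 over all genes tested. The median over the 7290 expressed nuclear genes, those with a mean of at least 200, was 0.73 on the same scale, above the 0.66 of GALC. Changes are on the log2(normalized reads + 1) scale, and a call is a Benjamini-Hochberg adjusted p under 0.05 over all tested genes from limma, in a fit of all 4 groups. The same 7 genes were called higher under each of 5 scalings of the libraries. One of these divides each library by the median ratio of those expressed genes, and with libraries scaled on expressed genes in this way 14.4% of all genes tested were called higher and 20.7% lower. On that scale the log2 changes were smaller, at 5.87 for GM2A, 3.73 for ASAH1, 3.44 for SMPD1, 3.38 for PSAP, 2.55 for HEXA, 1.496 for GLA and 0.59 for GLB1. Shares of all genes called were counted only on the deposited scale and with libraries scaled on expressed genes. The fold changes below are on the deposited scale.

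**Figure D1:**
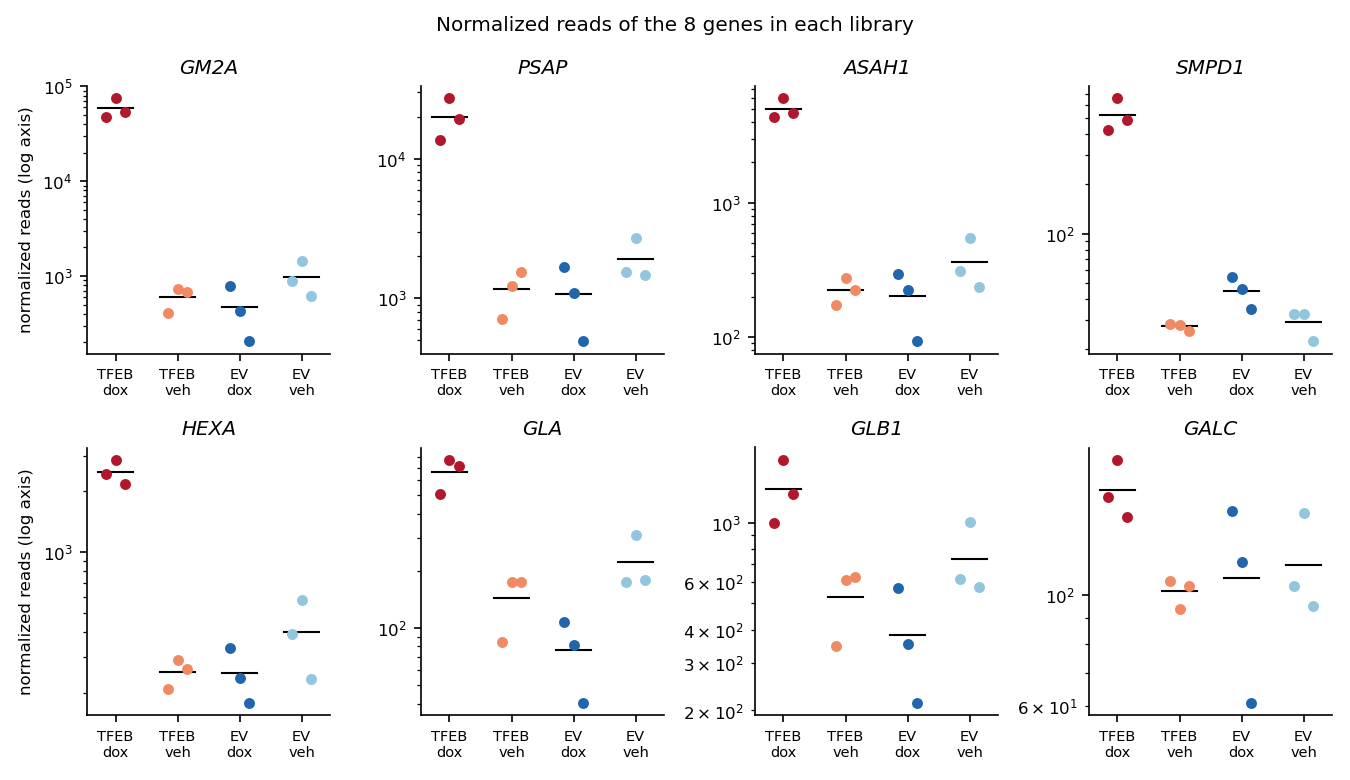
Normalized reads (log axis) of the 8 genes in each of the 12 libraries. Points are libraries, black lines are means of the 3 libraries of a group, and dox and veh stand for doxycycline and vehicle. Each TFEB doxycycline library lies above all libraries of the other groups for 6 genes, all but GLB1 and GALC. The share of all genes with such a separation was not counted.

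The activator proteins gained the most normalized reads. GM2A (ENSG00000196743.4) encodes the GM2 activator, which lifts ganglioside GM2 from the membrane and presents it to beta-hexosaminidase A. It had 47894, 75115 and 53663 normalized reads in TFEB doxycycline, against 403, 734 and 679 in TFEB vehicle, 790, 431 and 204 in EV doxycycline and 876, 1432 and 618 in EV vehicle. The 3 induced libraries lay far above the other 9, with no overlap. The change against TFEB vehicle was 98.5-fold (95% confidence interval 45.0 to 216, limma adjusted p = 5.2e-13). PSAP (ENSG00000197746.9) encodes prosaposin, the precursor of saposins A to D, which assist galactosylceramidase, arylsulfatase A and acid ceramidase among others. It had 13770, 27278 and 19361 normalized reads in TFEB doxycycline, against 708, 1232 and 1553 in TFEB vehicle, 1664, 1082 and 491 in EV doxycycline and 1556, 2686 and 1462 in EV vehicle. Again the induced libraries were separate from the rest. The change against TFEB vehicle was 17.5-fold (95% confidence interval 7.91 to 38.7, limma adjusted p = 1.55e-07).

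SMPD1 and ASAH1, which act on sphingomyelin and on ceramide itself, rose. ASAH1 (ENSG00000104763.13) encodes acid ceramidase, the last step before sphingosine. It had 4326, 6021 and 4675 normalized reads in TFEB doxycycline, against 174, 276 and 226 in TFEB vehicle, 294, 224 and 93.3 in EV doxycycline and 314, 544 and 238 in EV vehicle. No control library reached the induced ones, and the change against TFEB vehicle was 22.2-fold (95% confidence interval 11.3 to 43.9, limma adjusted p = 5.69e-10). SMPD1 (ENSG00000166311.5) encodes acid sphingomyelinase, which turns sphingomyelin into ceramide. It had 426, 662 and 489 normalized reads in TFEB doxycycline, against 28.3, 28.1 and 25.8 in TFEB vehicle, 54.3, 46.1 and 34.98 in EV doxycycline and 32.8, 32.7 and 22.3 in EV vehicle. The change against TFEB vehicle was 18.2-fold (95% confidence interval 11.9 to 27.9, limma adjusted p = 4.59e-15), again without overlap. SMPD1 had the fewest reads of the 8 genes in the control groups, with 23 to 64 recovered reads in a control library, so that its control levels carry more counting error than those of the other members.

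The sugar-removing hydrolases showed graded changes. HEXA (ENSG00000213614.5) encodes the alpha subunit of beta-hexosaminidase A, the enzyme that GM2A serves. It had 2438, 2867 and 2176 normalized reads in TFEB doxycycline, against 209, 290 and 262 in TFEB vehicle, 335, 237 and 178 in EV doxycycline and 392, 575 and 233 in EV vehicle. The induced libraries did not overlap the others, and the change against TFEB vehicle was 9.82-fold (95% confidence interval 5.13 to 18.8, limma adjusted p = 2.65e-07). GLA (ENSG00000102393.5) encodes alpha-galactosidase A, which removes the terminal galactose of globotriaosylceramide. It had 506, 771 and 711 normalized reads in TFEB doxycycline, against 84.0, 174 and 175 in TFEB vehicle, 108, 81.4 and 40.4 in EV doxycycline and 176, 309 and 180 in EV vehicle. TFEB doxycycline did not overlap the other groups, and the change against TFEB vehicle was 4.74-fold (95% confidence interval 2.65 to 8.48, limma adjusted p = 4.58e-05).

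GLB1 (ENSG00000170266.11) encodes beta-galactosidase, which starts the breakdown of ganglioside GM1. It had 993, 1713 and 1281 normalized reads in TFEB doxycycline, against 348, 610 and 627 in TFEB vehicle, 573, 355 and 213 in EV doxycycline and 615, 1009 and 576 in EV vehicle. The lowest induced library lay below EV vehicle replicate 2, so these groups overlapped. The change against TFEB vehicle was 2.54-fold (95% confidence interval 1.27 to 5.05, limma adjusted p = 0.0436). This call rests on single libraries: it ended on leaving out any 1 library of TFEB doxycycline or TFEB vehicle, EV doxycycline replicate 2 or EV vehicle replicate 1, with a highest adjusted p of 0.208. GALC (ENSG00000054983.12) encodes galactosylceramidase, which acts on galactosylceramide and psychosine and is best known from myelin. It had 157, 186 and 143 normalized reads in TFEB doxycycline, against 107, 94.0 and 104 in TFEB vehicle, 146.9, 117 and 61.0 in EV doxycycline and 104, 146 and 94.9 in EV vehicle. The induced libraries lay above those of TFEB vehicle and overlapped both EV groups. Its change against TFEB vehicle was 1.58-fold with an interval of 0.965 to 2.59 (limma adjusted p = 0.193), and it was -0.08 on the log2 scale with libraries scaled on expressed genes.

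The comparison with EV doxycycline asked what the TFEB vector changed when both lines received the drug. The same 7 genes were higher in TFEB doxycycline, while 27.2% of all genes tested were called higher and 5.37% lower. The fold changes were 140 for GM2A, 26.9 for ASAH1, 20.2 for PSAP, 11.4 for SMPD1, 10.2 for HEXA, 9.09 for GLA and 3.68 for GLB1, with limma adjusted p between 5.67e-14 (GM2A) and 0.00257 (GLB1). GALC had a log2 change of 0.66 (limma adjusted p = 0.147). The median log2 change of the 7290 expressed genes was 1.38 on the same scale, above that of GALC. With libraries scaled on expressed genes GALC was called lower, by -0.70 (limma adjusted p = 0.023), and the other 7 were called higher with smaller log2 changes, at 5.75 for GM2A, 3.38 for ASAH1, 2.96 for PSAP, 2.15 for SMPD1, 1.98 for HEXA, 1.82 for GLA and 0.50 for GLB1. On that scale 14.2% of all genes tested were called higher and 57.6% lower. Against EV vehicle 6 genes were higher, while 12.2% of all genes tested were called higher and 8.51% lower. GM2A differed by 62.9-fold, SMPD1 by 17.4-fold, ASAH1 by 14.4-fold, PSAP by 10.6-fold, HEXA by 6.59-fold and GLA by 3.04-fold. GLB1 was not called there (1.83-fold, limma adjusted p = 0.243), although it was with libraries scaled on expressed genes (log2 change 0.78, limma adjusted p = 0.000146), where 15.9% of all genes tested were called higher and 16.2% lower. GLB1 was also called higher with each of the other 3 scalings, edgeR and DESeq2, and GALC with TMM scaling (log2 change 0.69, limma adjusted p = 0.0489) and edgeR (0.70, adjusted p = 0.0334). The count of genes called higher against EV vehicle was thus 8 with TMM scaling and 7 with each of the other 3. The share of all genes called was not counted with TMM scaling, equal totals or upper quartiles. On the deposited scale, the 6 genes were higher against each of the 3 controls, which held for 10.7% of all genes tested, with 1.35% lower against each. The 3 comparisons share the TFEB doxycycline libraries.

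**Figure D2:**
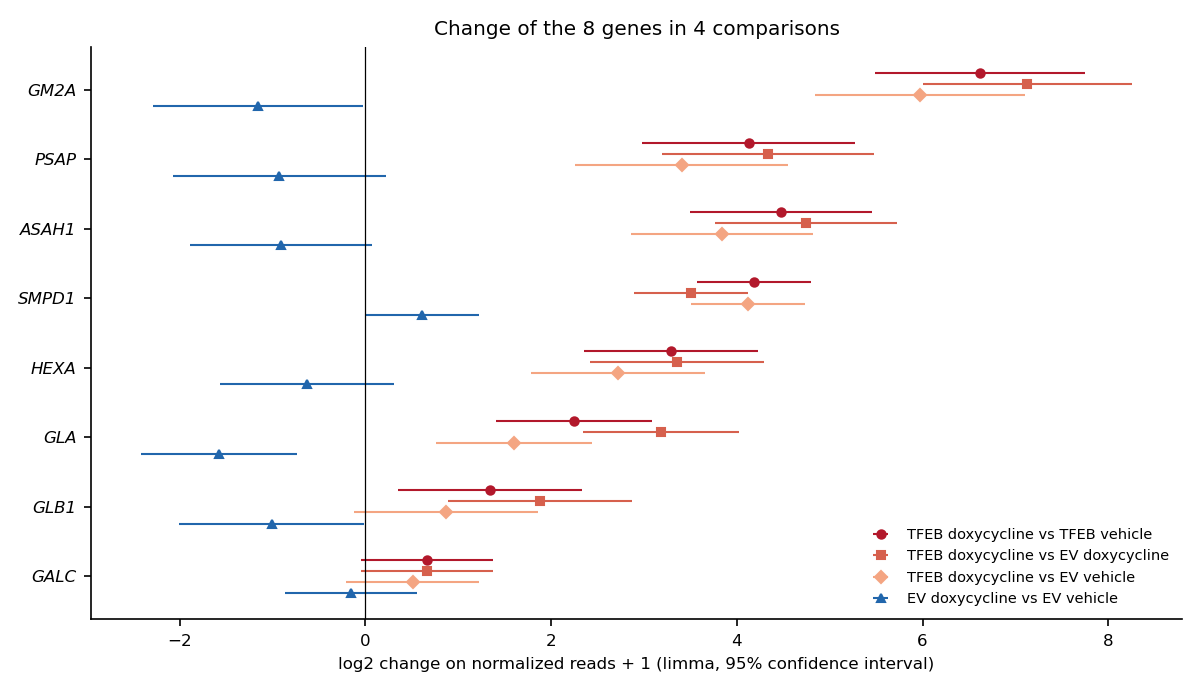
Log2 change of the 8 genes in 4 comparisons, with 95% confidence intervals from the limma fit on normalized reads + 1. Intervals against the 3 control groups lie to the right of 0 for each gene except GALC and, against EV vehicle, GLB1. For doxycycline in the EV line the estimates lie between -1.58 (GLA) and 0.61 (SMPD1).

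Doxycycline alone, in the EV line, gave changes whose direction, for 6 of the 8 genes, depended on the scaling of the libraries. On the deposited scale GLA fell in EV doxycycline, with a log2 change of -1.58 and a limma adjusted p of 0.00882, and the other 7 genes were not called. Of all genes tested 23.3% were called lower and 3.39% higher. The call for GLA ended without EV vehicle replicate 2 (limma adjusted p = 0.0796) and with libraries scaled on expressed genes (log2 change -0.30, limma adjusted p = 0.148). The median log2 change of the 7290 expressed genes was -1.29 in this comparison on the deposited scale. Of the 8 genes, GM2A (-1.16), GLB1 (-1.01), PSAP (-0.93), ASAH1 (-0.91) and HEXA (-0.63) had negative and SMPD1 (0.61) a positive log2 change, none of them called, and GALC had -0.15. With libraries scaled on expressed genes ASAH1 (0.38), HEXA (0.66), GALC (1.13) and SMPD1 (1.86) were called higher and none lower, and on that scale 44.1% of all genes tested were called higher and 5.75% lower. In the same comparison on that scale GM2A had 0.13 (limma adjusted p = 0.381) and PSAP 0.36 (limma adjusted p = 0.0533). SMPD1 was called higher under each scaling except the deposited one, and had 54.3, 46.1 and 34.98 normalized reads in EV doxycycline against 32.8, 32.7 and 22.3 in EV vehicle, which do not overlap. Without EV doxycycline replicate 1, ASAH1, GLB1 and GM2A joined GLA as called lower on the deposited scale.

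**Figure D3:**
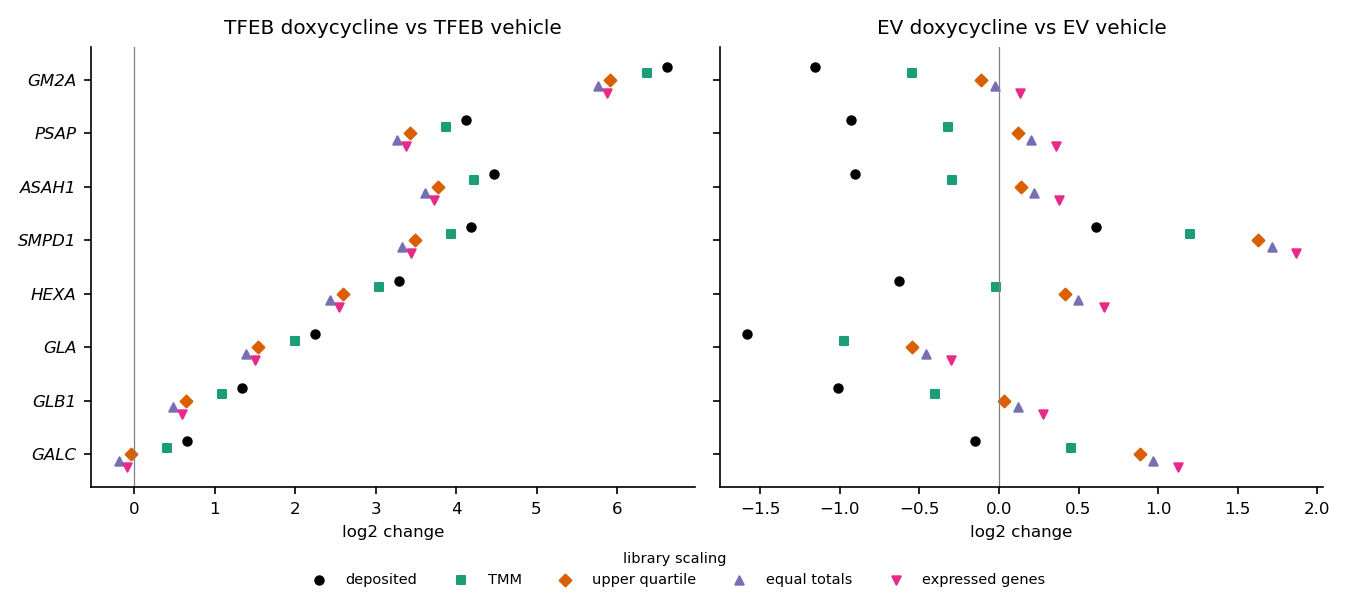
Log2 change of the 8 genes under 5 scalings of the libraries, for TFEB doxycycline against TFEB vehicle (left) and EV doxycycline against EV vehicle (right). Each symbol is 1 scaling. On the left, changes of 7 genes stay above 0 under each scaling, from 0.48 (GLB1) to 6.62 (GM2A), whereas on the right 6 genes lie on both sides of 0.

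The response to doxycycline differed between the lines for 7 of the 8 genes on the deposited scale. The response in the TFEB line exceeded that in the EV line by 7.78 on the log2 scale for GM2A, 5.38 for ASAH1, 5.06 for PSAP, 3.92 for HEXA, 3.83 for GLA, 3.58 for SMPD1 and 2.35 for GLB1, with limma adjusted p from 2.73e-10 (GM2A) to 0.00826 (GLB1). Of all genes tested, 29.2% were called in this direction and 6.15% in the other. The median over the 7290 expressed genes was 2.04 on the same scale, close to the 2.35 of GLB1. With libraries scaled on expressed genes 6 genes were called higher, GM2A by 5.74, ASAH1 by 3.35, PSAP by 3.02, HEXA by 1.89, GLA by 1.80 and SMPD1 by 1.58, while 11% of all genes tested were called higher and 57.8% lower. On that scale GLB1 was not called (0.32, limma adjusted p = 0.136) and GALC was called lower (-1.21, limma adjusted p = 0.0102). The estimate for GALC on the deposited scale was 0.81 (limma adjusted p = 0.191).

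The uninduced TFEB line and the EV line with vehicle did not differ at the threshold for any of the 8 genes, nor for any of the 23128 genes tested (0 called by limma, edgeR or DESeq2). At an unadjusted p under 0.05 limma had 0 of the 8 genes and 1754 of all genes, edgeR 0 and 2754, and DESeq2 0 and 1903. Log2 changes of TFEB vehicle against EV vehicle lay between -0.72 (PSAP) and -0.07 (SMPD1), with limma adjusted p from 0.452 to 0.886. With libraries scaled on expressed genes they lay between -0.06 (PSAP) and 0.57 (SMPD1).

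Ratios between genes of 1 library do not depend on how the libraries are scaled, and pairs were chosen after the values were seen. The GM2A to HEXA ratio, activator to enzyme subunit, ranged from 19.6 to 26.2 in TFEB doxycycline, 1.93 to 2.59 in TFEB vehicle, 1.15 to 2.35 in EV doxycycline and 2.23 to 2.65 in EV vehicle. The ratio of reads was thus higher in each induced library than in each control library. The GM2A to PSAP ratio ranged from 2.75 to 3.48 in TFEB doxycycline, against 0.438 to 0.595 in TFEB vehicle, 0.398 to 0.474 in EV doxycycline and 0.423 to 0.563 in EV vehicle. The PSAP to GLA ratio ranged from 27.2 to 35.4 in TFEB doxycycline, 7.07 to 8.88 in TFEB vehicle, 12.2 to 15.4 in EV doxycycline and 8.11 to 8.86 in EV vehicle, so EV doxycycline lay between induced and vehicle libraries. The ASAH1 to SMPD1 ratio ranged from 9.10 to 10.1 in TFEB doxycycline, 6.16 to 9.83 in TFEB vehicle, 2.67 to 5.41 in EV doxycycline and 9.57 to 16.6 in EV vehicle. It was lowest in EV doxycycline, and the induced libraries overlapped both vehicle groups.

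**Figure D4:**
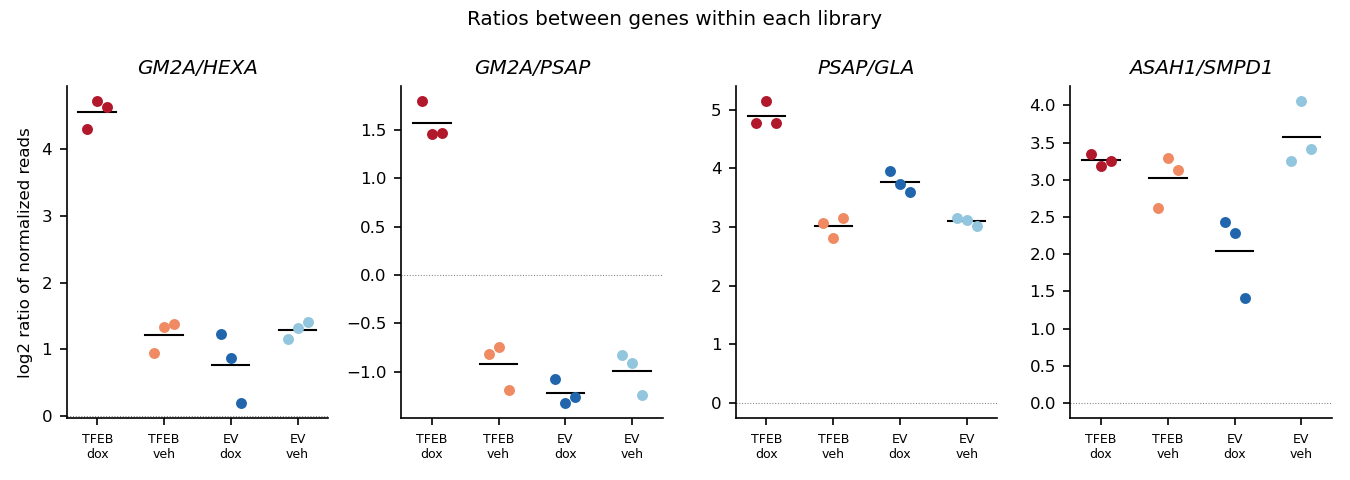
Log2 ratio of the normalized reads of 2 genes within each library, for 4 pairs. Points are libraries and black lines are means of 3 libraries. GM2A/HEXA and GM2A/PSAP are higher in each induced library than in each control library, and ASAH1/SMPD1 is lowest in EV doxycycline.

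The make-up of the summed reads changed with these unequal rises. The 8 genes together took 0.486 ± 0.0383% of all normalized reads in TFEB doxycycline, 0.0299 ± 0.000835% in TFEB vehicle, 0.0359 ± 0.00368% in EV doxycycline and 0.0312 ± 0.00155% in EV vehicle (SD, n = 3 each). Of that sum GM2A took 66.2 ± 1.54% in TFEB doxycycline, 19.8 ± 1.39% in TFEB vehicle, 17.4 ± 2.26% in EV doxycycline and 20.3 ± 1.95% in EV vehicle (SD, n = 3 each). PSAP took 22.3 ± 2.38% in TFEB doxycycline, against 37.6 ± 4.35% in TFEB vehicle. GLB1 took 1.49 ± 0.0722% in TFEB doxycycline, against 17.3 ± 0.435% in TFEB vehicle. These are shares of reads and not of molecules, since longer transcripts give more reads.

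For most of the 8 genes the spread between replicates was smaller with libraries scaled on expressed genes. The SD of the log2 values between replicates, as a median over the 8 genes, was 0.32 in TFEB doxycycline, 0.40 in TFEB vehicle, 0.71 in EV doxycycline and 0.47 in EV vehicle on the deposited scale. With libraries scaled on expressed genes the median was 0.14 in TFEB doxycycline, 0.20 in TFEB vehicle, 0.14 in EV doxycycline and 0.18 in EV vehicle. The SD was larger on that scale for SMPD1, at 0.45 in TFEB vehicle against 0.071 on the deposited scale, 0.45 against 0.31 in EV doxycycline and 0.43 against 0.31 in EV vehicle. It was also larger for GALC in TFEB vehicle, at 0.48 against 0.097, and smaller for each other gene and group. On the deposited scale EV doxycycline replicate 3, the shallowest library, had the lowest value of its group for each of the 8 genes. EV vehicle replicate 2, the deepest, had the highest of its group for each gene but SMPD1.

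Other genes that act on sphingolipids in the lysosome rose in part in TFEB doxycycline against TFEB vehicle. NEU1, a sialidase that trims gangliosides, averaged 2407 ± 369 normalized reads in TFEB doxycycline and 199 ± 37.7 in TFEB vehicle (SD, n = 3 each), and rose by 3.60 on the log2 scale. ARSA, the sulfatide-cleaving arylsulfatase A, had a log2 change of 0.74 (limma adjusted p = 0.176). Of 5 partner proteins 4 rose, beside 17.4% of all genes tested called higher in this comparison. CTSA, which protects GLB1 and NEU1 in a complex, rose by 5.13 and averaged 22566 ± 4533 normalized reads in TFEB doxycycline and 645 ± 131 in TFEB vehicle (SD, n = 3 each). GRN, a binding partner of prosaposin, rose by 3.22 and SCARB2, a lysosomal membrane protein, by 2.36. SORT1, a sorting receptor for prosaposin, rose by 1.24, which was not called with libraries scaled on expressed genes (0.49, limma adjusted p = 0.377), to equal totals or to upper quartiles, nor without TFEB vehicle replicate 3 (limma adjusted p = 0.0837). SUMF1, which activates sulfatases and holds the E-box core in its promoter, had a log2 change of 0.41 (limma adjusted p = 0.47). The E-box core thus occurred in promoters of genes called higher (CTSA, NEU1) and not called (SUMF1).

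**Figure D5:**
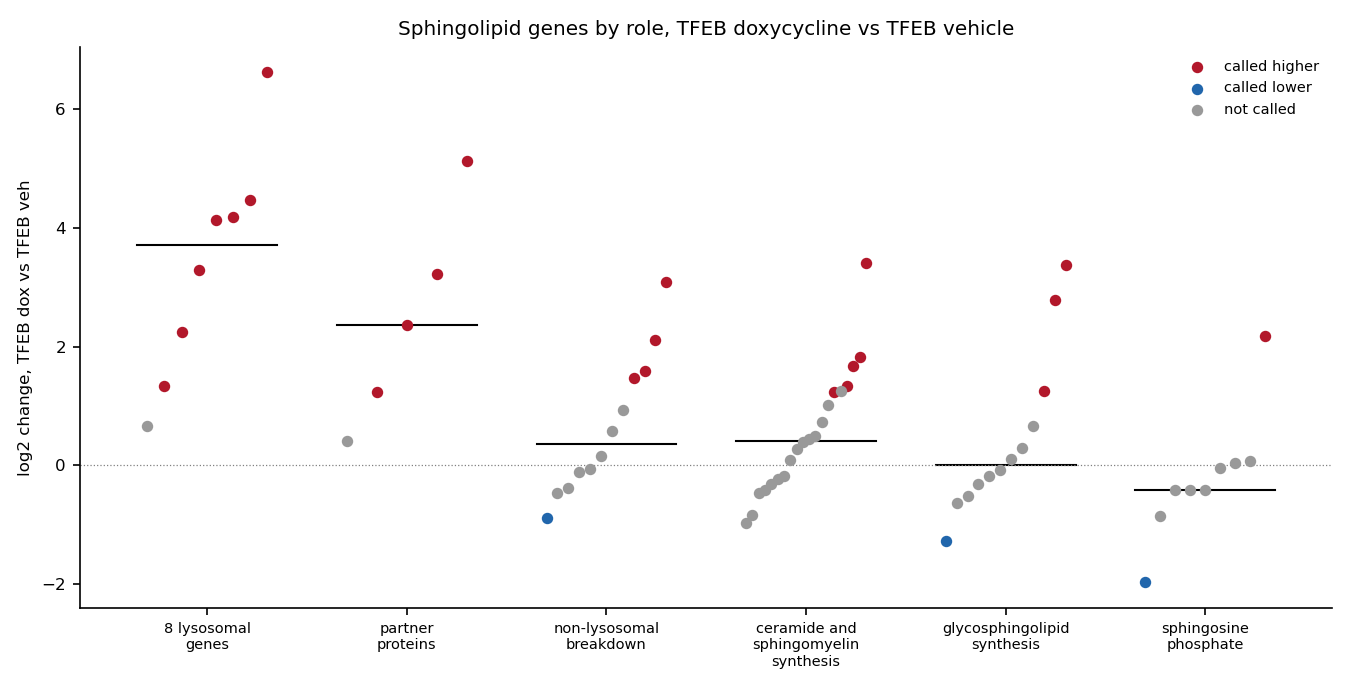
Log2 change of sphingolipid genes by role in TFEB doxycycline against TFEB vehicle. Points are genes, coloured by call, and black lines are medians of a list. On the deposited scale the 8 lysosomal genes have a median of 3.71. The median is 0.37 for breakdown outside the lysosome and 0.42 for ceramide and sphingomyelin synthesis, below the 0.73 of the expressed genes. Medians of the glycosphingolipid synthesis and sphingosine phosphate lists are lower still.

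Genes of sphingolipid metabolism outside the lysosome were called in both directions. On the deposited scale the counts stand beside 17.4% of all genes tested called higher and 4.66% lower. With libraries scaled on expressed genes they stand beside 14.4% called higher and 20.7% lower. Of 12 tested genes of non-lysosomal breakdown 4 rose and 1 fell, with a median log2 change of 0.37. On the expressed-gene scale 4 rose and 2 fell (SMPD3 and SMPD4), and the median was -0.35. The neutral sphingomyelinase SMPD2 rose by 3.09, the non-lysosomal glucosylceramidase GBA2 by 2.12, the sphingosine phosphate lyase SGPL1 by 1.59 and the alkaline ceramidase ACER3 by 1.47. The call for ACER3 ended without TFEB doxycycline replicate 2 (limma adjusted p = 0.0612) or TFEB vehicle replicate 1 (limma adjusted p = 0.0607). The gene that fell, named after its value was seen, was SMPD3, by 0.88 (limma adjusted p = 0.0216). Of 20 genes of ceramide and sphingomyelin synthesis 5 rose and none fell, with a median of 0.42. COL4A3BP, the ceramide transfer protein, rose by 3.41, the desaturase DEGS1 by 1.82, the ceramide synthase CERS5 by 1.68 and ORMDL2, a regulator of serine palmitoyltransferase, by 1.33. Without TFEB vehicle replicate 1 the calls for DEGS1 (limma adjusted p = 0.0741), CERS5 (0.0596) and ORMDL2 (0.169) ended. Without TFEB doxycycline replicate 2 those for CERS5 (limma adjusted p = 0.0677) and ORMDL2 (0.105) ended, and without TFEB doxycycline replicate 3 that for ORMDL2 (0.051). ORMDL2 was also not called with libraries scaled on expressed genes (log2 change 0.59, limma adjusted p = 0.0598) or to equal totals. On the expressed-gene scale 5 of these 20 rose and 3 fell, and their median was -0.33. Of 12 genes of glycosphingolipid synthesis 3 rose and 1 fell, with a median of 0.01, which was -0.71 with libraries scaled on expressed genes. UGCG, which makes glucosylceramide, rose by 3.37, the lactosylceramide synthase B4GALT5 by 2.78 and B3GNT5 by 1.26, while A4GALT, which makes the globotriaosylceramide that GLA degrades, fell by 1.28. The call for B3GNT5 held in 5 of the 12 fits with 1 library left out (highest limma adjusted p = 0.175). That for A4GALT ended with TMM scaling, no filter, no variance trend, edgeR and DESeq2, with adjusted p from 0.0591 to 0.127. Leaving out TFEB doxycycline replicate 2 gave A4GALT a log2 change of -0.60 (limma adjusted p = 0.406), and its call also ended without TFEB vehicle replicate 1 (0.0684) or 3 (0.153). A4GALT averaged 8.87 normalized reads in TFEB doxycycline and 19.2 in TFEB vehicle, near the filter on low values. Of 9 genes of sphingosine phosphate signalling the transporter SPNS2 rose by 2.19, the receptor S1PR4 fell by 1.97, and 7 were not called, with a median of -0.41. On the expressed-gene scale 1 of these 9 rose and 4 fell.

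The genes with the profile closest to each member over the 12 libraries were found among 12060 others with a mean of at least 50. Likeness was the root mean square difference of log2 values after centring each gene on its own mean, in which a smaller value is closer. GM2A was closest to CTSD, at 0.22, and ASAH1 to IGF2R, at 0.15. PSAP was closest to CORO1C (0.17), HEXA to ZBTB43 (0.14) and SMPD1 to SP140 (0.22). GLA was closest to FAF1 (0.10), GLB1 to MORF4L1 (0.07) and GALC to RP11-158H5.7 (0.15). Among the 8 genes themselves ASAH1 and PSAP were each other's nearest, at 0.28, as were GLA and GLB1, at 0.48. The nearest member to GM2A was ASAH1, at 0.98, the greatest such distance among the 8 genes.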

How the data were processed

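Normalized read values of 12 HL60 libraries were read from 1 table. The submitters' processing notes name STAR (2.5.3a) together with HTSeq (0.6.1), without their roles. Libraries were made with a NuGEN FFPE RNA-seq kit, per the labels' protocols. No source used here gives the genome build, annotation release or strand setting. In GENCODE release 29, exons of ASAH1, GALC, GLB1 and HEXA overlap a gene on the opposite strand. Those of GLB1 and HEXA also overlap a gene on the same strand. Reads in these overlaps may thus be left out or counted for the other gene.

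The deposited signal values are read counts divided by 1 factor per library, as read from the values: 100% were whole multiples of 1 step per library at a tolerance of 0.01. For 2 libraries this step differed from 1 by less than 1%, so there rounding to whole reads is no test of recovery. The factor equalled a median-ratio size factor in each library. The libraries held 4474007 to 22488047 recovered reads, and counting error is only part of the spread: between replicates, chi-square divided by its degrees of freedom was 8.38 to 26.8.

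Genes with a mean of at least 10 (23128 of 57820) entered a limma (3.58.1, R 4.3.3) fit of log2(value + 1), with 1 mean per group, a variance trend, two-sided tests and Benjamini-Hochberg adjustment over all tested genes at 0.05. The interaction of vector and doxycycline was tested in the same fit. Alternatives were pseudocounts of 0.5 and 5, other filters, 4 other scalings (TMM, upper quartiles, equal totals, and median ratios over 7290 expressed nuclear genes), no variance trend, the compared groups alone, a replicate block, each library left out, and edgeR 4.0.16 and DESeq2 1.42.0 on recovered reads. Simulated counts with known changes were used to test the code.

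All 8 genes and TFEB are named whatever their result. Of each other sphingolipid list up to 4 called genes with the largest change are named, and of each marker list the gene with the highest mean. For each of the 8 genes the 1 closest profile is named, and genes outside this rule are named where a count turns on them. The members and lists were chosen with earlier results of these data known. Each of 101 list genes, the 8 included, was found by its current or older symbol. No column of the table was left out. Some genes of these lists are not reported here.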

Additional observations from a re-analysis of the deposited data

Results flagged for a closer look

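The doxycycline response in the TFEB line minus that in the EV line was called for 7 of the 8 genes by the interaction term of the limma fit, which is what set them apart, beside 29.2% of all genes tested called in the same direction. The call for GLB1 ended with equal totals (0.36, limma adjusted p = 0.103) and with libraries scaled on expressed genes (0.32, limma adjusted p = 0.136). On the log2 scale the differences were 5.38 for ASAH1, 3.83 for GLA, 2.35 for GLB1, 7.78 for GM2A, 3.92 for HEXA, 3.58 for SMPD1 and 5.06 for PSAP. These are on the deposited scale, where the median of the expressed genes was 2.04. Groups of 3 libraries were not searched for single libraries that stand apart.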

How the results depend on the processing

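The 7 members called higher in TFEB doxycycline against TFEB vehicle were 6 to 7 with 1 library left out, 7 against EV doxycycline, 6 against EV vehicle and 7 in the interaction, the last 3 under each library left out. With each library left out in turn, 0 to 4 members were called in EV doxycycline against EV vehicle, 0 to 4 lower and 0 higher. In that comparison TMM scaling, edgeR and DESeq2 each called 2 members, 1 of them higher. Scaling to equal totals called 4, with 3 higher, to upper quartiles 3, with 2 higher, and on expressed genes 4, with 4 higher and 0 lower. Of all genes tested 3.39% were called higher there on the deposited scale and 44.1% on expressed genes. Shares of all genes were not counted under the other settings or with a library left out, so those counts do not set the members apart. The member called lower against EV doxycycline (1 with equal totals, 1 on expressed genes) and in the interaction (1 with equal totals, upper quartiles or expressed genes) was GALC. Estimates of uncalled or weakly called genes changed sign. For EV doxycycline against EV vehicle these were, with equal totals, ASAH1 0.22, GALC 0.97, GLB1 0.12, HEXA 0.50 and PSAP 0.20; with upper quartiles ASAH1 0.14, GALC 0.88, GLB1 0.034, HEXA 0.41 and PSAP 0.12; and on expressed genes ASAH1 0.38, GALC 1.13, GLB1 0.28, GM2A 0.13, HEXA 0.66 and PSAP 0.36. There GALC was also 0.45 with TMM, 0.49 with edgeR, 0.21 with DESeq2, and with 1 library left out it ranged from -0.42 (EV doxycycline replicate 1 omitted) to 0.21 (EV doxycycline replicate 3 omitted), with 0.030 when EV vehicle replicate 2 was omitted. With equal totals, upper quartiles and expressed genes GALC was -0.19, -0.038 and -0.084 against TFEB vehicle, -0.76, -0.48 and -0.70 against EV doxycycline, and -1.16, -0.92 and -1.21 in the interaction, where TMM gave -0.042 and edgeR -0.089. Of 1541 values of single genes under alternatives, 1450 kept direction and call. With the direction kept, 42 lost the call and 17 gained one. Another 32 changed sign, and some of these gained a call as well. The cause was not tested, but the median of all genes in EV doxycycline against EV vehicle was -0.19 on the deposited scale and 1.05 on expressed genes. Of 18 same-numbered pairs 12 correlated above 0.1, with a range over all 18 from -0.60 to 0.69. Of 12 libraries 6 correlated best with their own number. These correlations used deposited values, into which library-wide shifts enter, so they cannot show whether equal numbers share an experiment. The numbers were not taken to pair all 4 groups. Each of the 3 pairs exceeded 0.1 only for TFEB doxycycline with EV vehicle. With a replicate block over all libraries 6 members were called in that comparison and 7 against TFEB vehicle, as without it, and the block changed no call of a named gene.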
